A study of Mus musculus with 6 samples.

Results

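The *Pramel* genes, the mouse relatives of the human cancer-testis antigen gene PRAME, were followed in bulk RNA-seq of embryonic skin. All genes of the raw count table whose Ensembl identifier maps to a symbol beginning with *Pramel* were taken, whatever their gene type, which gave 62 of 55536 listed genes. Of these, 57 are annotated as protein coding, 1 as a long noncoding RNA and 4 as pseudogenes. The family was selected on measured values of these libraries, since it was taken up because *Pramel1* and *Pramel13* were higher in TKO than in Ctrl, so the difference of these genes between the groups is a description. Where the calls of the fit over all genes are given for them, they are not independent evidence of that difference, and nothing is read from them about the family.

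Basal epithelial cells were sorted from dorsal skin of mouse embryos at E16.5 as *Epcam*+ and α6+ cells, and 6 libraries were made, 3 Ctrl and 3 TKO. All embryos carried floxed *Suv39h1* (f/f) and *Setdb1* (f/f), were labelled as lacking *Suv39h2* (*Suv39h2*-/-) and had been exposed to tamoxifen. The TKO (triple knockout) embryos in addition carried K14CreERT2, a tamoxifen-activated recombinase driven by the keratin 14 promoter, which is active in basal keratinocytes, and the Ctrl embryos did not (K14CreERT2-). The deleted genes encode histone methyltransferases that place H3K9me3, a mark of silent chromatin. Ctrl 1 and TKO 2 were female and the other 4 samples male. Recombination reaches only cells in which the keratin 14 promoter has been active, the study's record of litters marks those taken for bulk RNA-seq as mosaic, and Ctrl embryos carry the *Suv39h2*-/- genotype too. The labels do not say that replicates with the same number, or of the same group, came from separate litters, so spread between replicates is spread between these samples.

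PRAME family proteins are built of leucine-rich repeats. They are best known from the germ line, the oocyte and the early embryo, where many of them are made, while most other tissues keep them silent. Human PRAME is switched on again in many tumours. Human PRAME acts as a substrate receptor of the *Cul2* ubiquitin ligase and has been described as a repressor of retinoic acid receptor signalling together with Polycomb proteins. In mouse embryonic stem cells *Pramel7* directs the degradation of *Uhrf1*, the partner of the maintenance DNA methyltransferase *Dnmt1*. The family has grown by tandem duplication, and many mouse members are near copies of each other.

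The promoters of *Pramel1* and *Pramel13*, the genes on which the results turn, are shown. Each sequence runs 5′ to 3′ on the strand of the gene, from 250 bases before to 50 bases after the start of the gene in RefSeq (GRCm38.p6). Positions were found by exact match in GRCm39, and each sequence matched once. Capitals mark every CpG dinucleotide and every match to a searched motif.
Pramel1, chr4:143120761-143121060, plus strand: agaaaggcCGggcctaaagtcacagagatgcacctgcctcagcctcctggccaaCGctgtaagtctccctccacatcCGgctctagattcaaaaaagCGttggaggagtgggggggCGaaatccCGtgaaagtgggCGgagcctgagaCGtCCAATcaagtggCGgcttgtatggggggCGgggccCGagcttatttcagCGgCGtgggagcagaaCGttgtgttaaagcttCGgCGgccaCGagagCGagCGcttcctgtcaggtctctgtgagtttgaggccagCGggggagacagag
Pramel13, chr4:144134985-144135284, minus strand: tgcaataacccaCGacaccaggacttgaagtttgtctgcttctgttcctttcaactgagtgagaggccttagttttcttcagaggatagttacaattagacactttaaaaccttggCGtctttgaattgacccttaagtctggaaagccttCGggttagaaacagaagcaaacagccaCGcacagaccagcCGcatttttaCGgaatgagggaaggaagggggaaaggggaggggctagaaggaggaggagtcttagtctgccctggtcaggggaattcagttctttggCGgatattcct

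The *Pramel1* promoter held 20 CpG and the *Pramel13* promoter 7. The RefSeq start lay 30 bases inside the GENCODE gene for *Pramel1* and at its first base for *Pramel13*. RefSeq gave promoters for 38 *Pramel* symbols, of which 35 matched members of the table by symbol. Their median was 1 CpG, against 7 over all 32851 mouse promoters of the same length. *Pramel1* was the only *Pramel* promoter with 10 or more CpG, which makes 2.63% of the family against 43.5% of all promoters. It stands out in this family, and it lies above the median of all promoters without being rare among them. Over the genome, 26.5% of promoters held at least as many CpG and 52.1% held at least the 7 of *Pramel13*. The next *Pramel* promoter in that order, Pramel3, held 9. That symbol matched no member, but its window spans the annotated start of *Pramel3a*. The starts of other members are less sure. Of 28 windows of symbol-matched members placed once in GRCm39, 16 lay within 100 bases of the GENCODE start. Another 11 lay over 1 kb from that start. Among these was *Pramel15*, the member closest to *Pramel1* in coding sequence, whose window lay 4.21 kb inside the gene and is not printed. Over the 16 the median was also 1 CpG, and *Pramel1* was again the 1 promoter with 10 or more.

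The same windows were searched on both strands for 5 motifs: the CCAAT box (spelled as it is named), the TATA box (TATAAA), the E-box (CACGTG), the E2F site (TTCCCGCC) and the cAMP response element (TGACGTCA). None of these contains another, and a match was counted wherever it lay. CCAAT stood in 57.9% of *Pramel* promoters and 37.4% of all promoters, and once in the *Pramel1* promoter. TATAAA stood in 34.2% of *Pramel* promoters and 13.6% of all promoters, and in neither of the promoters printed. The other 3 motifs were in no *Pramel* promoter, against 7.15% of all promoters for CACGTG, 2.19% for TTCCCGCC and 1.79% for TGACGTCA. Over the 16 windows at the GENCODE start the shares were 56.2% for CCAAT and 37.5% for TATAAA. Near copies share their promoters, so these shares do not count independent sequences.

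**Figure D1:**
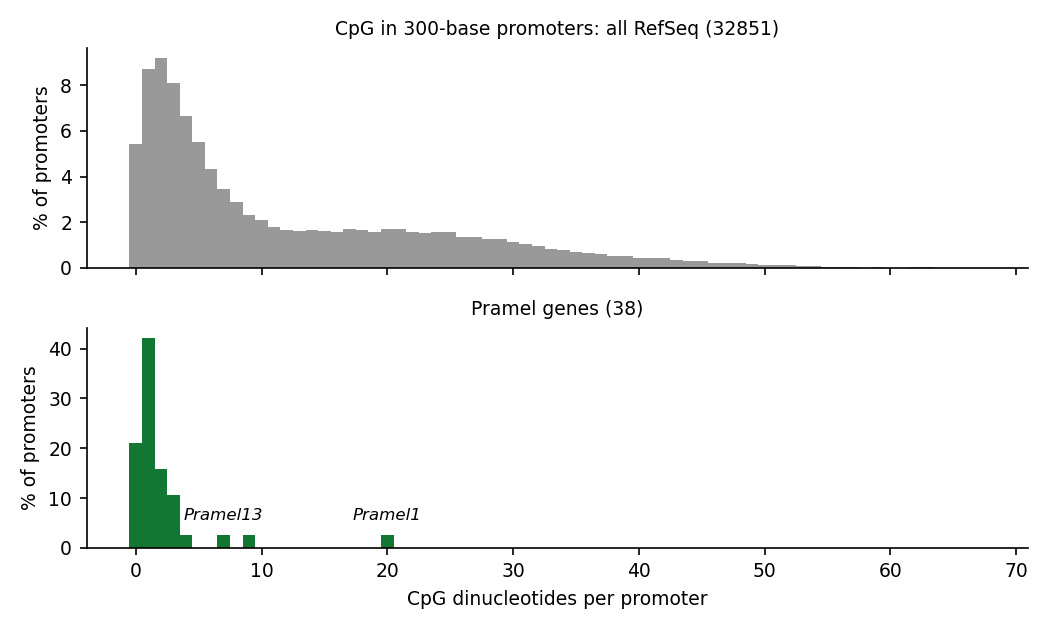
CpG dinucleotides in the 300 bases around the gene start, as the share of promoters with each number, for all 32851 RefSeq mouse promoters (upper panel) and for the 38 Pramel promoters (lower panel). Most Pramel promoters sit at the low end, Pramel13 lies at 7 and Pramel1 stands alone at 20.

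Depth and the state of the libraries bear on every low count in the family. Total counts were 102159175, 136515436 and 104422632 in Ctrl 1 to 3 and 116308383, 108957256 and 118413082 in TKO 1 to 3. A member was called detected in a library with 3 or more counts, which is 0.0232 to 0.0303 CPM (counts per 1e6, scaled to the TMM-normalized library size) across the 6 libraries. Ctrl 1 and Ctrl 3 stood apart from the other 4 libraries. They held 3 or more counts for 27423 and 27463 genes of the table, against 23877 to 24984 in the other libraries. Among genes too low to be tested, 7068 and 7110 were detected in Ctrl 1 and Ctrl 3, against 3773 to 4624 elsewhere. Olfactory receptor genes, a large family of the nose, also stood highest in those libraries, with 309 and 354 of 1193 detected in Ctrl 1 and Ctrl 3, 60 in Ctrl 2, and 66, 104 and 145 in TKO 1 to 3. Counts of detected *Pramel* genes are therefore given with and without these libraries.

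**Figure D2:**
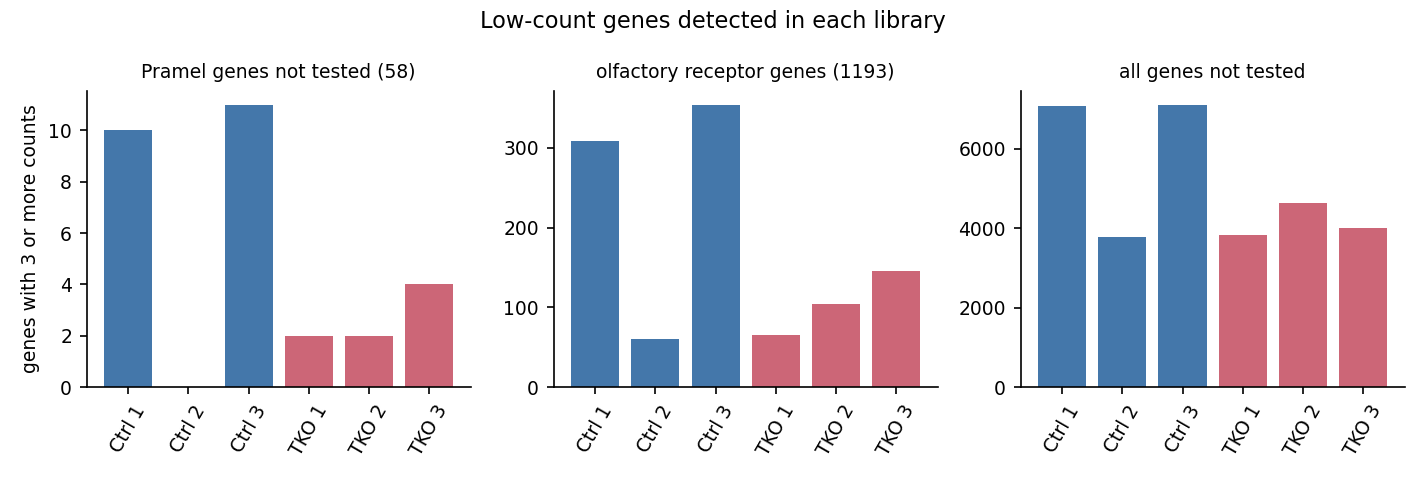
Genes with 3 or more counts in each of the 6 libraries (bars, Ctrl in blue and TKO in red), for the 58 Pramel genes not tested, for olfactory receptor genes and for all genes not tested. In all 3 panels the bars of Ctrl 1 and Ctrl 3 are the tallest, with 10 and 11 Pramel genes against 0 to 4 in the other libraries.

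The targeted genes were read first. *Setdb1* stood at 125.5, 117.9 and 121.1 CPM in Ctrl 1 to 3 and at 95.3, 62.3 and 74.9 CPM in TKO 1 to 3, without overlap. Its log2 fold change was -0.65 (SE 0.161), with an adjusted p of 0.286 by edgeR's quasi-likelihood test and 0.0449 by DESeq2. *Suv39h1* differed by -0.10 (SE 0.137). *Suv39h2*, labelled -/- in both groups, still gave 16.2 ± 0.784 CPM in Ctrl against 17.5 ± 1.46 CPM in TKO (SD, n = 3 each), a log2 difference of 0.11. Counts over a whole gene include exons outside a deletion, so these levels check the labels only in part. In bulk samples fewer cells of a type and less RNA per cell cannot be told apart.

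Most of the family had few or no counts in the table. Of 62 members, 29 had no count in any of the 6 libraries, 9 had at most 1 or 2 counts in a library, and 24 were detected in at least 1 library. With Ctrl 1 and Ctrl 3 left out, 11 were detected. Only 2 members, *Pramel12* and *Pramel13*, were detected in every library. Detection in exactly 1 library was found for 13 members, and for 6 with Ctrl 1 and Ctrl 3 left out. The floor of 3 counts was itself close to several members. *Pramel33* and *Pramel3a* reached exactly 3 counts in their highest library, and *Pramel39-ps*, *Pramel52-ps*, *Pramel44*, *Pramel57* and *Pramel3d* reached 2.

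The number detected was 13, 3 and 15 in Ctrl 1 to 3 and 6, 5 and 8 in TKO 1 to 3. In Ctrl only, 13 members were detected, in TKO only 4, and in both 7. With Ctrl 1 and Ctrl 3 left out, these counts became 0, 8 and 3, over 1 Ctrl and 3 TKO libraries. The excess in Ctrl lay in Ctrl 1 and Ctrl 3, while Ctrl 2 had the fewest members of all libraries, and the detection of low genes of every kind given above moved with it. The part of that difference between libraries in the *Pramel* counts was not tested. The summed *Pramel* counts went the other way, with 747, 859 and 840 in Ctrl 1 to 3 and 1680, 2107 and 2064 in TKO 1 to 3. *Pramel1*, *Pramel12* and *Pramel13* held 88.1%, 99.2% and 88.1% of these counts in Ctrl and 98.2%, 99.5% and 97.9% in TKO.

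*Pramel13* (ENSMUSG00000028591, chr4:144118239-144135034 on the minus strand), known as a gene of the male germ line, was the most abundant member. It gave 282, 405 and 454 counts in Ctrl 1 to 3 and 1083, 1373 and 1473 counts in TKO 1 to 3. In CPM these were 2.85, 3.13 and 4.21 against 9.20, 12.4 and 12.1. Every TKO library lay above every Ctrl library, the lowest TKO value being 2.18 times the highest Ctrl value. The Ctrl mean was 3.40 ± 0.720 CPM and the TKO mean 11.2 ± 1.78 CPM (SD, n = 3 each), a fold of 3.31 and a log2 fold change of 1.73 (SE 0.246).

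*Pramel1* (ENSMUSG00000041805, chr4:143120981-143126730 on the plus strand), known as a gene of the testis, was at or near 0 in Ctrl and counted in every TKO library. It gave 0, 0 and 3 counts in Ctrl 1 to 3 and 127, 274 and 113 counts in TKO 1 to 3. TKO 2 held more than each of the other TKO libraries, and the groups did not overlap. In CPM, TKO libraries stood at 1.08, 2.48 and 0.929, with a mean of 1.496 ± 0.856 CPM (SD, n = 3). Since Ctrl was at or under 3 counts in every library, its level was set at that floor, and TKO was on average at least 55.2-fold higher. The lowest TKO library lay 30.7 times above the highest Ctrl floor. The 3 counts in Ctrl came from Ctrl 3, where low counts were frequent in genes of many kinds.

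*Pramel12* (ENSMUSG00000046862, chr4:143138996-143148041 on the plus strand) was present at like levels in both groups. Its counts were 376, 447 and 283 in Ctrl 1 to 3 and 440, 449 and 434 in TKO 1 to 3. These are 3.80, 3.46 and 2.63 CPM against 3.74, 4.07 and 3.57 CPM, and the groups overlapped. The Ctrl mean was 3.29 ± 0.603 CPM and the TKO mean 3.79 ± 0.253 CPM (SD, n = 3 each), with a log2 fold change of 0.20 (SE 0.274). *Pramel12* is overlapped on the opposite strand by 2 genes, Gm69237 and Gm69240, and without strand information their reads could not be told apart.

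*Pramel13os*, a noncoding RNA gene that lies inside *Pramel13* on the opposite strand (ENSMUSG00000028590, chr4:144130314-144132957), was the last member with enough counts to be tested. It gave 14, 5 and 11 counts in Ctrl 1 to 3 and 17, 0 and 6 counts in TKO 1 to 3. The groups overlapped and the log2 fold change was -0.52 (SE 1.28). Its counts did not rise with those of *Pramel13*, the gene around it, but they were too few to compare the genes closely. Without strand information, reads over the stretch they share could not be told apart.

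**Figure D3:**
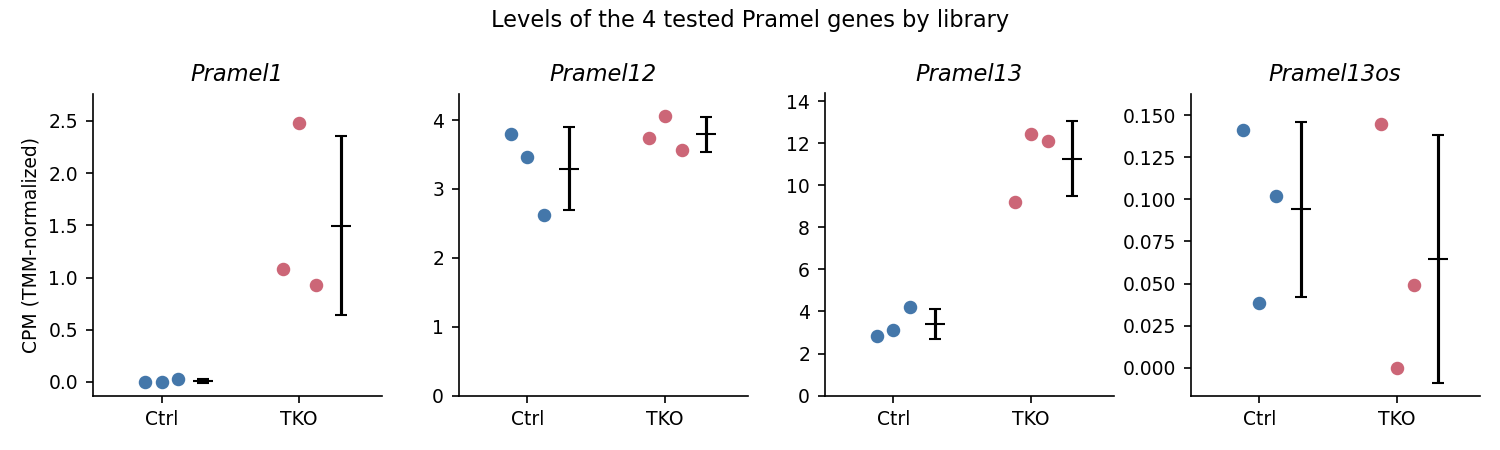
Levels in CPM (TMM-normalized, linear axes that differ between panels) of the 4 tested Pramel genes, with 1 point per library and, beside each group of 3, the mean with its SD. Pramel1 and Pramel13 in TKO lie above all Ctrl points, and the groups overlap for Pramel12 and Pramel13os.

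*Pramel1* and *Pramel13* were the 2 members called among the 4 that passed the low-count filter, where a call needs an adjusted p-value under 0.05 by edgeR's quasi-likelihood test and an absolute log2 fold change above 1. Over all 20622 genes tested 0.131% were called higher in TKO, and 6.35% were higher and 5.11% lower with groups that did not overlap. At an unadjusted p under 0.05, 4.06% were higher and 2.02% lower, and by DESeq2 on the same genes 0.936% were called higher and 0.102% lower. These are the genes for which the family was chosen, so the counts stand as a description. The other 58 members were too low for the filter and enter no count of calls. Both calls were lost when sex was added as a factor, when Ctrl 1 and Ctrl 3 were left out together, and when any 1 Ctrl library or TKO 2 was left out, each time with the direction kept. *Pramel13* also lost its call with 10 counts required in every library, where *Pramel1* was not tested. The log2 fold change of *Pramel13* stayed between 1.61 and 1.91 over all alternatives run. For *Pramel1*, whose Ctrl level is a floor, TKO was at least 51.5-fold to 58.6-fold higher with 1 Ctrl library left out, at least 37.0-fold without TKO 2, and at least 64.5-fold with Ctrl 1 and Ctrl 3 left out.

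Compared per kb of exon, *Pramel13* was the highest member in every library. In Ctrl, *Pramel13* stood at 0.910 ± 0.193 CPM per kb and *Pramel12* at 0.424 ± 0.0776 CPM per kb. In TKO, *Pramel13* stood at 3.01 ± 0.476 CPM per kb, *Pramel1* at 0.532 ± 0.305 and *Pramel12* at 0.488 ± 0.0325 (SD, n = 3 for each mean), so that *Pramel1* and *Pramel12* did not differ beyond their spread. Within a library, where scaling cancels, *Pramel13* was 1.56, 1.89 and 3.34 times *Pramel12* per length in Ctrl 1 to 3 and 5.12, 6.36 and 7.06 times in TKO 1 to 3. *Pramel1* reached 15.6%, 26.5% and 10.2% of the level of *Pramel13* per length in TKO 1 to 3. The lengths are of all annotated exons, which these cells need not all use.

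The 3 genes share a cluster, in which *Pramel1* and *Pramel12* lie close together and *Pramel13* lies far from both. Genes within 1000 kb of each other were joined, and the largest cluster by counts lay on chromosome 4, from 143120981 to 144135034, with 23 members over 1014.05 kb. *Pramel1* lies at one end, 12.265 kb from *Pramel12*, and *Pramel13* at the other, 970.197 kb from *Pramel12*. The cluster held 8200 of the family's counts, 2362 in Ctrl and 5838 in TKO, and 17 of its members were detected, or 10 with Ctrl 1 and Ctrl 3 left out. Between its ends lie 19 members of which none passed the low-count filter.

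**Figure D4:**
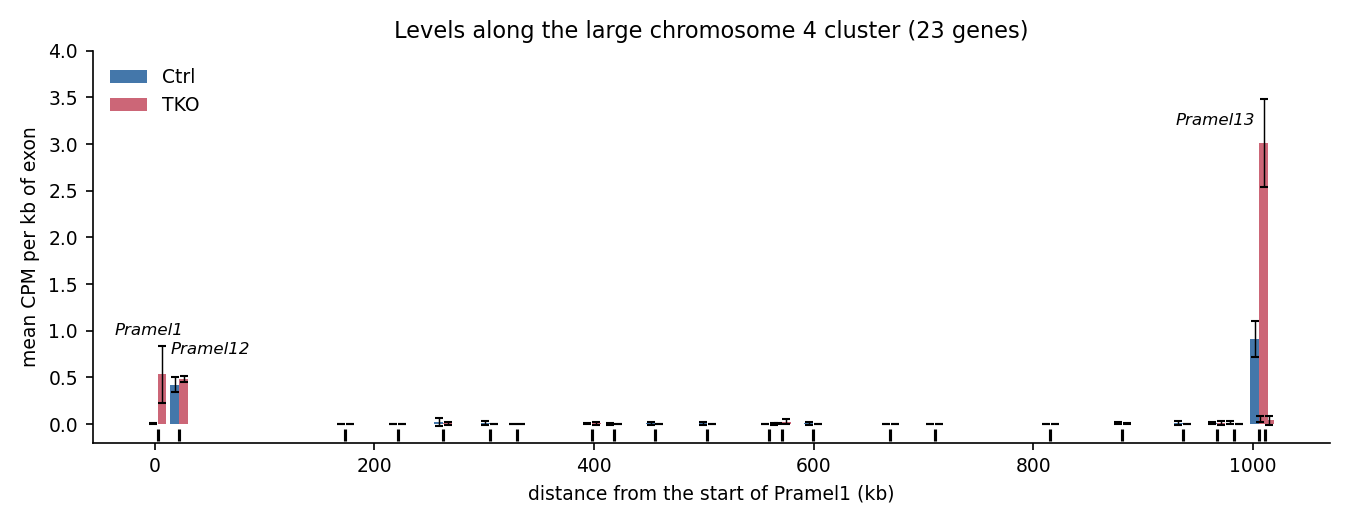
Mean level in CPM per kb of exon along the chromosome 4 cluster, plotted against distance from the start of Pramel1, with Ctrl in blue, TKO in red, error bars for the SD over 3 libraries and black ticks for the 23 genes. Pramel1 and Pramel12 at the left end and Pramel13 at the right end stand above members between them that lie near 0.

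Several members between those ends gave scattered counts. *Pramel22* gave 13 counts in Ctrl 1 and 6 in TKO 3, and 0 in the other 4 libraries. *Pramel28* gave 2 counts in Ctrl 1, 8 in TKO 1, 12 in TKO 3 and 0 elsewhere, and *Pramel31* gave 5 in Ctrl 1, 3 in Ctrl 3, 10 in TKO 3 and 0 elsewhere. None of them was absent from one group and present in all libraries of the other. *Pramel5* was the most evenly spread, with 5, 2 and 3 counts in Ctrl 1 to 3 and 3, 0 and 0 in TKO 1 to 3. *Pramel15*, the relative closest to *Pramel1*, gave 3, 0 and 6 counts in Ctrl and 0 in each TKO library. *Pramel16*, the relative closest to *Pramel12*, gave 4 counts in TKO 2 and 0 elsewhere.

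The other clusters had few counts in both groups. On chromosome 5, 27 members between 93629688 and 95952089 gave 50 counts in all, 40 in Ctrl and 10 in TKO, and 18 of them gave none. There 3 members were detected, and 0 with Ctrl 1 and Ctrl 3 left out. *Pramel34* held most of these, with 8 counts in Ctrl 1, 19 in Ctrl 3 and 0 in the other 4 libraries. On the X chromosome 5 members between 134068373 and 134405343 gave 6 counts. Smaller groups on chromosome 4 gave 0 counts for *Pramel17* to *Pramel19* (3 members) and 1 count for *Pramel32*, and *Pramel51* on chromosome 12 gave 6 counts in Ctrl 1.

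*Pramel6* and *Pramel7*, neighbours on chromosome 2 from 87319431 to 87341216, are the members best known from pluripotent cells. *Pramel7* gave 20 counts in Ctrl 3 and 0 in every other library. *Pramel6* gave 10 counts in Ctrl 1 and 4 in Ctrl 3, and 0 in the other 4 libraries. No TKO library held a count of either. A count of 0 allows up to 3 counts, which is at most 0.0272 CPM in these TKO libraries and covers counting error only.

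Counting between near-identical genes limits what these zeros mean. A fragment can be placed only where its sequence is unique, so the exons of each member were cut into all stretches of 100 bases and each stretch was looked up on both strands of GRCm39. For 9 members every stretch was found once in the genome, among them *Pramel1*, *Pramel12*, *Pramel13* and *Pramel13os*, as well as *Pramel6*, *Pramel7*, *Pramel15*, *Pramel23* and *Pramel32*. These 9 held 8121 counts and 8 of them were detected, or 4 with Ctrl 1 and Ctrl 3 left out. At 50 bases, 100% of stretches were still unique for *Pramel1* and *Pramel12*, 99.4% for *Pramel13* and 97.0% for *Pramel13os*. The values of the 3 abundant genes therefore rest on sequence found nowhere else in the genome.

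The remaining members divide by the same measure. In 18 members more than 50% but not all stretches were unique, and 11 of them were detected (6 with Ctrl 1 and Ctrl 3 left out) with 112 counts in all. In another 18 some but at most 50% were unique, and 5 were detected (1 with Ctrl 1 and Ctrl 3 left out) with 62 counts. In 17 members no stretch was unique, none was detected, and they gave 2 counts in all. The median unique share was 86.0% on chromosome 4, 1.09% on the X chromosome and 0% on chromosome 5, where 15 of 27 members had no unique stretch and the highest share was 32.3%. Stretches of *Pramel44* occurred up to 23 times in the genome. If reads with several best positions were left out in counting, as many programs do, such members would be listed near 0 whatever their level. How such reads were treated is not given in the sources used here, so a 0 on chromosome 5 or X is a value of the table and not a level.

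**Figure D5:**
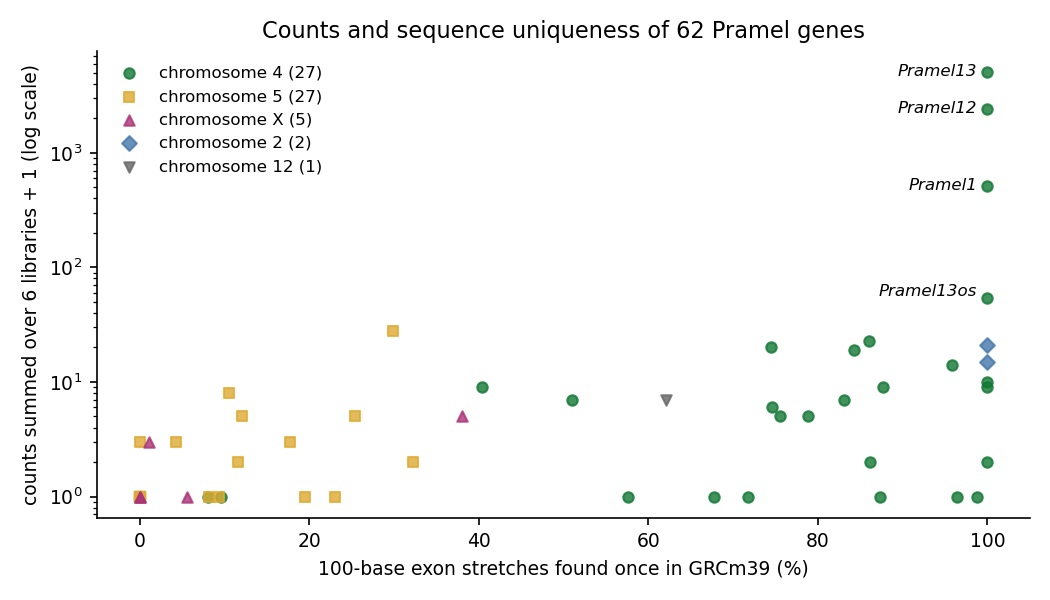
Counts summed over 6 libraries (plus 1, log axis) against the share of 100-base exon stretches found once in GRCm39, with 1 point for each of the 62 Pramel genes, marked by chromosome. Members with no unique stretch gave at most 2 counts, and Pramel1, Pramel12 and Pramel13 lie at 100% and above all other points.

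Coding sequences gave the same picture of distance. *Pramel1* was 63.9% identical to *Pramel13* and 61.7% to *Pramel12*, and *Pramel12* was 65.6% identical to *Pramel13*, over an end-to-end alignment. The closest member was *Pramel15* for *Pramel1*, at 65.4%, *Pramel12* for *Pramel13*, at 65.6%, and *Pramel16* for *Pramel12*, at 76.1%. On chromosome 4 as a whole the closest relative of a member was at a median identity of 95.7% over 26 coding members, on chromosome 5 at 99.9% over 23 and on X at 99.9% over 5. No coding member had a more distant closest relative than *Pramel1*, and *Pramel1* and *Pramel13* were less like each other than each was like its closest member.

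The oogenesin genes *Oog1* to *Oog4*, relatives in the same family that are made in oocytes, lie outside the symbol rule. Among *Pramel* genes their coding sequences were closest to *Pramel25*, *Pramel26*, *Pramel27* and *Pramel29*, at 96.1%, 95.0%, 88.4% and 79.2%. Only *Oog2* was counted, with 4 counts in Ctrl 1, 13 in TKO 3 and 0 elsewhere, and the other 3 gave no count.

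Genes on either side of the family were examined in the same fit. Within 100 kb of a *Pramel* gene lie 124 genes that are not *Pramel*, of which 63 gave no count in any library and 4 were tested. None was called, against 0.131% of all genes. *Pdpn*, a membrane glycoprotein gene near *Pramel1*, stood at 10.4, 17.8 and 11.9 CPM in Ctrl 1 to 3 and at 15.9, 30.6 and 14.5 CPM in TKO 1 to 3, overlapping between groups, with a log2 fold change of 0.61 (SE 0.306, adjusted p = 0.894 by edgeR). *Gm13274*, near *Pramel32*, stood at 0.757, 0.209 and 0.0557 CPM in Ctrl and at 4.61, 7.16 and 0.115 CPM in TKO. It was high in TKO 1 and TKO 2 but not in TKO 3, with a log2 fold change of 3.55 (SE 1.31, adjusted p = 0.729 by edgeR). *Klhl9*, near the same member, differed by -0.17 on the log2 scale (SE 0.157).

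Of the lists of known partners and targets of PRAME proteins most genes passed the low-count filter. By edgeR 0 were called, against 0.131% of all genes tested, and by DESeq2 on the same genes 1, *Aldh1a1*, against 0.102% called lower. Of 17 genes of the *Cul2* ligase and its other substrate receptors all were tested, with a median log2 fold change of 0.00 against 0.01 over all genes tested. The scaffold *Cul2* stood at 46.7 (Ctrl) and 47.4 CPM (TKO), and the adaptors *Elob* and *Eloc* at 65.3 and 46.9 CPM in Ctrl and 64.1 and 50.6 CPM in TKO. Of the list, *Fem1b*, a substrate receptor, was the most abundant, and *Rbx1*, the RING subunit, had the smallest p-value, with a log2 fold change of -0.24 (SE 0.158).

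Of 20 genes of retinoic acid signalling 16 were tested, *Stra8* at most at 2 counts being among the others, with a median log2 fold change of -0.06. The most abundant, the receptors *Rxra* and *Rarg*, differed by -0.04 and -0.02. *Aldh1a1*, an enzyme that makes retinoic acid, stood at 2.16 ± 0.0164 (Ctrl) and 0.875 ± 0.167 CPM (TKO) (SD, n = 3 each). Its log2 fold change was -1.30 (SE 0.344), with an adjusted p of 0.339 by edgeR and 0.0134 by DESeq2. *Rdh10*, which catalyses the step before, stood at 9.91 and 13.3 CPM, a log2 fold change of 0.42 (SE 0.211) with an adjusted p of 0.889 by edgeR.

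Of 10 DNA methylation genes 9 were tested, with a median log2 fold change of 0.11. *Uhrf1*, whose protein is the known substrate of *Pramel7*, stood at 352.0 (Ctrl) and 359.5 CPM (TKO), and its partner *Dnmt1* at 357.1 and 386.3 CPM. These are RNA levels and do not show degradation of the protein. The smallest p-values were those of *Dnmt3b*, a de novo methyltransferase, which averaged 16.0 ± 1.52 CPM in Ctrl against 23.0 ± 4.84 CPM in TKO, and of *Tet1*, a demethylating enzyme, at 16.3 ± 2.96 and 21.7 ± 1.39 CPM (SD, n = 3 each). Their log2 fold changes of 0.53 and 0.41 had adjusted p-values of 0.658 and 0.785 by edgeR. Of 12 genes of Polycomb repressive complex 2, 11 were tested, with a median log2 fold change of 0.00. *Ezh2*, its catalytic subunit, stood at 104.2 (Ctrl) and 98.5 CPM (TKO), and *Phf19*, an accessory subunit, differed by -0.46 (SE 0.211, adjusted p = 0.854 by edgeR).

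Genes of the settings in which *Pramel* genes are usually found were read next, and those of the 2-cell embryo were mostly at or near 0. Of 26 genes of the 2-cell embryo in the table, 16 never exceeded 3 counts in a library, 9 of these gave none, and *Dppa2* was the 1 gene tested. *Dppa2* was at 8, 0 and 12 counts in Ctrl 1 to 3 and 8, 66 and 38 counts in TKO 1 to 3, with an adjusted p of 0.912 by edgeR. *Duxf3*, the factor that starts that programme, gave no count. Of 11 pluripotency factors 3 were tested and 0 called by edgeR, against 0.131% of all genes tested. Among the 3 was *Tfcp2l1*, a factor also made in epithelia, at 35.6 ± 10.9 (Ctrl) and 88.2 ± 5.55 CPM (TKO) (SD, n = 3 each). Its log2 fold change was 1.31 (SE 0.200) and its adjusted p 0.0505 by edgeR, just outside the threshold. By DESeq2 its adjusted p was 1.18e-06 and it was called, where 0.936% of all genes were called higher. *Sox2* was lower without overlap. It stood at 1.67, 1.56 and 2.66 CPM in Ctrl 1 to 3 and 1.08, 0.525 and 1.14 CPM in TKO 1 to 3. Its log2 fold change was -1.10 (SE 0.428, adjusted p = 0.736 by edgeR). *Sox2* is also among the Merkel cell markers given below, which were lower in TKO. The median log2 fold change of the 3 pluripotency factors tested was -0.02.

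Markers of male germ cells, the cells in which *Pramel1* and *Pramel13* are best known, were read as a list of 24. Of these 8 were tested, with a median log2 fold change of -0.04. By edgeR 0 were called, against 0.131% of all genes tested. By DESeq2 on the same genes 2, *Tdrd1* and *Ddx4*, were called higher, against 0.936% of all genes. Their summed level was 137.2, 99.2 and 131.5 CPM in Ctrl 1 to 3 and 119.6, 152.5 and 129.4 CPM in TKO 1 to 3, most of it from *Zbtb16*, which skin also makes. *Tnp1* and *Rhox13* gave no count in any library, *Prm1* and *Prm2*, the protamines, gave at most 6 counts, and *Stra8*, which is needed to enter meiosis, at most 2. *Tdrd1*, a piRNA pathway gene, stood at 19.0 ± 4.14 (Ctrl) and 51.4 ± 17.0 CPM (TKO) (SD, n = 3 each), with a log2 fold change of 1.44 (SE 0.248, adjusted p = 0.0879 by edgeR and 9.63e-06 by DESeq2). *Ddx4*, the germ cell RNA helicase also known as Vasa, gave 6, 8 and 10 counts in Ctrl 1 to 3 and 51, 58 and 46 counts in TKO 1 to 3, without overlap, with a log2 fold change of 2.62 (SE 0.657, adjusted p = 0.296 by edgeR and 0.0427 by DESeq2). The other members did not share 1 direction, and those named next were chosen after their values were seen. *Brdt*, a testis bromodomain gene, stood at 2.79, 3.77 and 2.44 CPM in Ctrl 1 to 3 and 2.34, 1.63 and 2.37 CPM in TKO 1 to 3, lower without overlap and not called. *Hormad1* gave 9, 2 and 5 counts in Ctrl and 0 in each TKO library, and *Sycp1* gave 17, 0 and 19 counts in Ctrl and 0, 1 and 0 in TKO. *Mael* gave 0 counts in each Ctrl library and in TKO 1, 20 in TKO 2 and 56 in TKO 3. *Sycp3* gave 0, 6 and 0 counts in Ctrl and 31, 24 and 0 in TKO, *Tex11* gave 4, 0 and 4 in Ctrl and 0, 15 and 33 in TKO, and *Boll* gave 2, 0 and 6 in Ctrl and 11, 0 and 12 in TKO. None of these 4 was counted above Ctrl in all 3 TKO libraries. The part of other cells in the levels of the *Pramel* genes was not tested.

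Oocyte markers were read as a list of 16, of which 4 were tested and 0 called by edgeR, against 0.131% of all genes tested. They summed to 7.91, 6.61 and 8.80 CPM in Ctrl 1 to 3 and 6.50, 9.25 and 9.97 CPM in TKO 1 to 3, most of it from *Kit*, which other cells of the skin also make, and *Oosp1* gave no count. Among 33 genes of other cancer-testis families 11 gave no count, 3 were tested and 0 called by edgeR, against 0.131% of all genes tested. *Xlr3a* had the smallest p-value of these, at 0.0894 ± 0.0450 (Ctrl) and 0.844 ± 0.682 CPM (TKO) (SD, n = 3 each), with an adjusted p of 0.471 by edgeR.

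The labelled cell type was checked against its markers. All 8 basal keratinocyte markers were counted, led by *Krt5*, and summed to 24329, 24101 and 18108 CPM in Ctrl 1 to 3 and 15025, 16826 and 19231 CPM in TKO 1 to 3. *Krt15* was lower in TKO without overlap, at 2461 ± 329.3 CPM in Ctrl against 1089 ± 423.1 CPM in TKO (SD, n = 3 each), a log2 fold change of -1.18 (SE 0.256) with an adjusted p of 0.185 by edgeR and 0.00066 by DESeq2. *Itgb4* was higher without overlap, at 456.9 CPM in Ctrl against 538.4 CPM in TKO, and not called. The other basal markers overlapped. Over the 8, 4 log2 fold changes were positive and the median was -0.002. Of all genes tested, 5.11% were lower and 6.35% higher without overlap. Suprabasal markers, led by *Krt1*, summed to 18582, 18170 and 20066 CPM in Ctrl and 16221, 12242 and 13045 CPM in TKO, lower without overlap. Of the 5 tested, *Krt1* and *Krt10* were lower without overlap, against 5.11% of all genes. Their log2 fold changes were -0.51 and -0.42, with adjusted p-values of 0.658 and 0.762 by edgeR. The other suprabasal markers overlapped between groups, and the median log2 fold change of the list was -0.05. The 7 skeletal muscle markers, led by *Ttn*, summed to 3.52, 10.8 and 6.87 CPM in Ctrl 1 to 3 and 32.0, 32.1 and 33.8 CPM in TKO 1 to 3, without overlap, and none of them was at 0. Of these 7, *Ttn* and *Myh3* were higher without overlap, against 6.35% of all genes tested, and the other 5 overlapped between groups. *Myh3* was called, with a log2 fold change of 2.61 (SE 0.336, adjusted p = 0.0211 by edgeR). By DESeq2 *Ttn* and *Acta1* passed as well, with adjusted p-values of 0.0214 and 0.0122, against 0.181 and 0.360 by edgeR. Over all genes tested 0.131% were called higher by edgeR and 0.936% by DESeq2.

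Merkel cell markers were lower in TKO. Their 6 genes, led by *Krt8*, summed to 8.76, 9.90 and 9.81 CPM in Ctrl and 3.53, 2.02 and 3.72 CPM in TKO, without overlap. All 5 tested were lower without overlap and at an unadjusted p under 0.05, against 5.11% and 2.02% of all genes, with a median log2 fold change of -1.92. By edgeR none was called, the adjusted p of *Krt8* being 0.113, and by DESeq2 *Krt8* and *Isl1* passed, with adjusted p-values of 4.94e-06 and 0.0136. Over all genes tested 0% were called lower by edgeR and 0.102% by DESeq2. Melanocyte markers, led by *Dct*, summed to 4.12, 7.03 and 10.97 CPM in Ctrl and 9.41, 11.9 and 10.5 CPM in TKO. Among them *Mlana* gave 14, 2 and 18 counts in Ctrl and 117, 169 and 37 counts in TKO, higher without overlap, with a log2 fold change of 3.13 (SE 0.856) and an adjusted p of 0.360 by edgeR and 0.0206 by DESeq2. Endothelial markers, led by *Cdh5*, summed to 26.0, 26.0 and 36.0 CPM in Ctrl and 24.4, 62.4 and 50.6 CPM in TKO. Fibroblast markers, led by *Col1a1*, summed to 1203, 3358 and 3009 CPM in Ctrl and 2162, 2564 and 2807 CPM in TKO. Immune markers, led by *Lyz2*, summed to 14.2, 30.5 and 10.7 CPM in Ctrl and 7.63, 57.7 and 12.4 CPM in TKO. TKO 2, the library with the most *Pramel1*, was also the only female TKO library and the one with the lowest *Setdb1*, the lowest Merkel sum and the highest immune and endothelial sums. The part of any of these cells in the *Pramel* values was not tested.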

How the data were processed

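RNA-seq counts were taken as the authors deposited them: whole-number counts of reads per Ensembl gene, not normalized, 1 column per library, with no column left unused. Per the methods and the labels, RNA was depleted of rRNA, trimmed with fastp and aligned with STAR. The methods name GRCm39 and the submitters' processing notes GRCm38. The counting program, annotation and strand setting are not given in the sources used here, and the kit is not stated to mark strand. Of 55536 identifiers 51477 matched GENCODE vM39 (GRCm39), which gave symbols and positions, and 4059 did not. Matched genes held 86.4% to 94.1% of a library's counts. Of 64 annotated *Pramel* identifiers 2 were not among those analysed.

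Differences between the groups were fitted in edgeR 4.0.16 under R 4.3.3 (filterByExpr with minimum count 10 and minimum total 15, TMM, robust glmQLFit, glmQLFTest), which tested 20622 genes. P-values were adjusted by the Benjamini-Hochberg method over all of them. Depth was 102159175 to 136515436 counts per library, and a floor of 3 counts was used. DESeq2 1.42.0, RLE size factors, other filters, a replicate block, sex, fitting without robust estimation and each library left out were alternatives. Coding sequences were aligned with edlib 1.3.9.post1. Relatives were ranked by coding rather than protein identity. The scripts were tested on simulated data.

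The members and all gene lists were chosen with earlier results of these data known. Members with 3 or more counts in a library could be named, with all 6 values for those tested or with 10 or more counts. Some members under 3 counts were named as well, for their position, their sequence or their closeness to that floor. All 6 values were also given for *Pramel5*, *Pramel15* and *Pramel16*. From other lists, the targeted genes, called genes, the 2 with the smallest p-value and the 2 most abundant could be named, and of the neighbours the 3 with the smallest p-value. Other genes named here (*Cul2*, *Elob*, *Eloc*, *Uhrf1*, *Ezh2*, *Duxf3*, *Mael*, *Brdt*, *Hormad1*, *Sycp1*, *Sycp3*, *Tex11*, *Boll*, *Acta1*, *Itgb4* and the germ cell and oocyte markers given as absent) were chosen for their role or after their values were seen.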

Additional observations from a re-analysis of the deposited data

How the results depend on the processing

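In the fit reported above 27 genes were called, all higher in TKO, and 2 *Pramel* members. No gene was called lower, with 416 lower at an unadjusted p under 0.05. DESeq2 called 214 genes on the same genes (193 higher, 21 lower) and 226 in its standard workflow. Without a low-count filter 235 genes were called, and with 10 counts required in every library 9. With the replicate block 45 were called. Leaving out 1 library gave 7 to 81 genes. With Ctrl 1 and Ctrl 3 both left out, an alternative chosen after seeing the data, 1 gene was called.

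*Pramel* members called numbered 0 with 10 counts in every library (where *Pramel1* is not tested), 0 with sex as a factor, 0 with Ctrl 1 and Ctrl 3 both left out, and 0 to 2 when 1 library was left out, 0 without any 1 of the Ctrl libraries or TKO 2. The other settings called both. Over all settings the log2 fold change ran from 1.61 to 1.91 for *Pramel13*, from 0.06 to 0.32 for *Pramel12* and from -1.86 to 0.72 for *Pramel13os*, which changed sign. For *Pramel1* the bound of at least 55.2-fold ran from 37.0 to 65.7 when 1 library was left out. Members detected numbered 10 at 10 or more counts, 33 at 1 or more, 11 with Ctrl 1 and Ctrl 3 both left out, and 18 to 24 with 1 library left out.

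In the lists, 1 retinoic acid gene was called lower by DESeq2 on the same genes and 1 in its standard workflow. For pluripotency factors 1 was called with RLE size factors, by DESeq2 in both forms, without a low-count filter and with the replicate block, and 0 to 1 with 1 library left out. For male germ cell markers 2 were called by DESeq2 on the same genes, 1 in its standard workflow, 2 without a filter, 1 with the block and 0 to 1 with 1 library left out. For other cancer-testis genes 1 was called by DESeq2's standard workflow, 1 without a filter and 0 to 1 with 1 library left out.

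Libraries with the same replicate number deviated from their group means with correlations of 0.168, 0.0873 and 0.127. Between different numbers the correlations ran from -0.161 to 0.0398, so each library correlated best with its own number. No label says that the numbers pair the samples, so the main fit did not pair them. Whether same-numbered samples share a litter was not tested. The block raised the calls from 27 to 45 genes and left the count of *Pramel* members at 2.

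With 3 libraries a group and 3 counts as the floor, levels under about 0.03 CPM could not be read. Members with little unique sequence depend on how shared reads were counted.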
